A study of Mus musculus with 12 samples.

Results

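Skin of mice bitten by ticks under the label ticks 2x was compared with skin of unbitten mice by RNA sequencing. The comparison was chosen with earlier results of these data known. It used 5 of the 12 libraries of the series, taken by their labels. Of these, 3 were labelled ticks 2x (titles EF19-6-1, EF19-6-3 and EF19-6-5, called replicates 1, 2 and 3). The other 2 were labelled naïve with no bite (EF19-6-15 and EF19-6-17, replicates 1 and 2). All 5 carry titles of 1 numbered series, and all are marked as day 4, counted from tick attachment in the bitten mice. The strain, sex and age of the mice, the tick species, and whether the sampled infestation is counted in 2x are not stated in the labels. Nor do the labels say that each library came from its own mouse, so the p-values measure the spread between libraries, which may be technical.

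Levels are CPM, the reads of a gene per mega (M) reads of its library. Of 25045 gene names, 16005 had at least 1 CPM in 2 or more of the 5 libraries and were tested. Estimated depth was 29.8 M and 12.5 M reads in the naïve libraries and 16.1 M to 20.3 M in the 2x libraries, so that 3 reads, the level below which a gene was taken as undetected, stood for 0.101 to 0.24 CPM. Every one of the 18 cornified envelope genes of the epidermis was tested, and together they held 10366 to 26146 CPM in each library, so epidermal transcripts were present throughout. The biopsies differed in make-up within each group. Mean log2(CPM + 1) of the hair shaft list was 7.63 and 0.77 in the naïve libraries and 9.07, 2.60 and 0.60 in the 2x libraries, and that of the skeletal muscle list was 8.72 and 8.25 against 5.78, 5.71 and 9.11.

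Ticks stay attached to the skin for days while they feed, and their saliva counters clotting, pain and inflammation. In hosts bitten before, basophils, mast cells armed with antibody, eosinophils and T cells are known to gather at the bite, and this reaction can make ticks detach. Skin also answers to steroid and peptide hormones through receptors in its fibroblasts, fat, vessels and glands. These lines are background and not results of the libraries described here.

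Expression of 6 genes fell in 2x skin and that of none rose at an adjusted p below 0.05. That was 0.0375% of the genes tested in the lower direction and 0% in the higher (limma on log2(CPM + 1), Benjamini-Hochberg adjustment over all genes). At an unadjusted p below 0.05 lay 865 lower genes (5.4%) and 941 higher genes (5.88%). The median log2 fold change of all genes was 0.01, and 51.5% of genes had one above 0. Libraries of the groups did not overlap for 2093 genes in the lower direction (13.1%) and for 2378 in the higher (14.9%). For a single gene, 3 libraries against 2 allow no p below 0.2 in a two-sided exact rank test, so single values were tested only in the fit across all genes.

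Oxtr, the receptor for the hormone oxytocin (chromosome 6, 112473683 to 112491035, GRCm38.p6), was at 81.4 and 99.9 CPM in the naïve libraries and at 7.77, 4.86 and 8.81 CPM in the 2x libraries. Every 2x library therefore lay far below both naïve libraries. The log2 fold change was -3.52 (SE 0.32, adjusted p = 0.0167). Pgr, the progesterone receptor and a well known target gene of the oestrogen receptor (chromosome 9, 8898900 to 8968611), was at 42.4 and 25.1 CPM in naïve skin and at 0.344, 0.475 and 0.124 CPM in 2x skin. In 2x replicate 3 this was under the level of 3 reads, which is 0.186 CPM there. Its log2 fold change was -4.69 (SE 0.56, adjusted p = 0.0435), the lowest of all 16005 genes.

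The other 4 genes that fell code for proteins of the cell surface. Pcdh18, a protocadherin that joins cells (chromosome 3, 49743291 to 49757383), was at 24.0 and 23.2 CPM in naïve skin and at 8.65, 8.56 and 8.01 CPM in 2x skin, with little spread inside either group (log2 fold change -1.39, SE 0.13, adjusted p = 0.0167). Tmem132c, a membrane protein gene (chromosome 5, 127241826 to 127565790), was at 20.4 and 18.2 CPM against 6.34, 5.71 and 5.21 CPM (-1.59, SE 0.18, adjusted p = 0.0411). The gene Enpep, for an aminopeptidase acting on angiotensin II (chromosome 3, 129269177 to 129332749), was at 71.6 and 75.6 CPM against 22.8, 20.0 and 27.1 CPM (-1.63, SE 0.20, adjusted p = 0.0435). Gpr165, an orphan receptor (chromosome X, 96713468 to 96719388), was at 2.42 and 1.76 CPM against 0.049, 0.106 and 0.062 CPM, each 2x value lying under the level of 3 reads in its library (-1.52, SE 0.18, adjusted p = 0.0411). Its fold change depended on the pseudocount added before the log, being -2.17 with 0.5 CPM and -3.66 with 0.1 CPM in place of 1. For none of the 6 genes did the groups overlap. Pgr and Gpr165 reached the minimum level for testing through the naïve libraries alone.

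**Figure D1:**
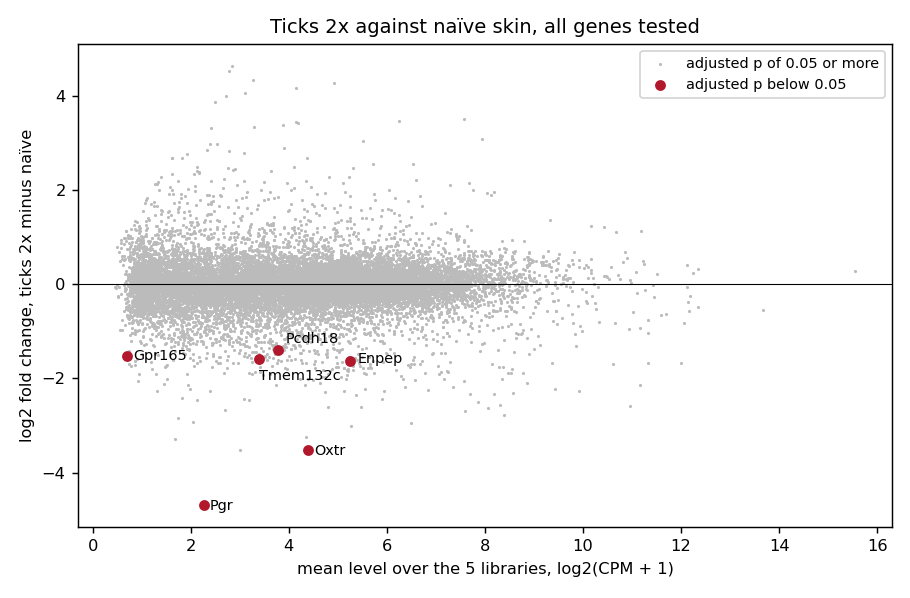
All 16005 tested genes, with the mean level over the 5 libraries on the horizontal axis, as log2(CPM + 1), and the log2 fold change of ticks 2x minus naïve on the vertical axis. The 6 genes called, all below 0, are drawn large and named, with Pgr at -4.69 and Oxtr at -3.52, while grey points reach as far above 0 without passing the test.

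These calls leaned on the spread shared with other libraries. With only the 8 libraries of the same title series in the fit, no gene was called (adjusted p of the 6 genes 0.134 to 0.151), and none with only the 5 libraries compared (0.105 to 0.465). Leaving out 1 of the 2x libraries at a time left 0 to 2 of the 6. The 2 that stayed, without 2x replicate 1, were Oxtr (adjusted p = 0.0345) and Pcdh18 (0.0414). Leaving out a naïve library leaves 1 in that group, and Pgr and Gpr165 then missed the minimum level and were not tested. The log2 fold change of Oxtr was -3.66 without naïve replicate 1 and -3.37 without naïve replicate 2.

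A promoter window of Oxtr and of Pgr is shown because both code for hormone receptors that were called lower. Each stretch runs from 250 bases before to 50 bases after a start site in RefSeq, GRCm38.p6, and is written 5′ to 3′ on the strand of the gene. Oxtr lies on the minus strand (chr6:112489776-112490075) and Pgr on the plus strand (chr9:8899583-8899882). Both windows lie inside the gene limits given above, downstream of the outermost start of the gene. The sequence before that outermost start was not searched. Capitals mark AGGTCA, a half-site that oestrogen and other nuclear receptors can bind, searched on both strands.
Oxtr: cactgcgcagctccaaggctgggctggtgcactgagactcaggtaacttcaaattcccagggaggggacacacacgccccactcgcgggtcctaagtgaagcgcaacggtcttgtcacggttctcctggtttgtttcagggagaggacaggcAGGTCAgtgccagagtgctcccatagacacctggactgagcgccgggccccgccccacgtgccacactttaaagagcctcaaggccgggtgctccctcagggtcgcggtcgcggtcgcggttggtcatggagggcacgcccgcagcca
Pgr: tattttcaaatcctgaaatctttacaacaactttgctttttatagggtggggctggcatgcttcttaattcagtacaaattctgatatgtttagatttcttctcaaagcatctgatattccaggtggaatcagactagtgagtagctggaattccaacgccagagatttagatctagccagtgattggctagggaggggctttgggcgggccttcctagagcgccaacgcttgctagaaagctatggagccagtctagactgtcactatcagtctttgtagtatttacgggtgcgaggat
The Oxtr stretch holds AGGTCA at 1 position and the Pgr stretch at 0, where 16.3% of 32851 promoters of this length hold it. The steroid receptor half-site AGAACA, held by 18.97% of promoters, was found in neither. The paired element GGTCANNNTGACC, which contains part of AGGTCA and is held by 0.07% of promoters, was also found in neither. The paired element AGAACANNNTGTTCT contains AGAACA whole, so it could not occur where AGAACA was absent. A match describes letters in this window and is no evidence that a receptor binds there.

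Of 16 hormone receptor genes listed, 14 were tested. Among these 10 lay lower in 2x skin without overlap (13.1% of all genes did) and 1 higher (14.9%). Of the 14, 2 were called lower (0.0375% of all genes were). A fold change above 0 was seen for 4 of the 14, at most 0.57 on the log2 scale, and 10 lay below 0. The median log2 fold change was -0.85, or -0.48 without naïve replicate 2. List means were 5.35 and 5.52 in the naïve libraries and 4.18, 4.18 and 4.30 in the 2x libraries. Rxfp1, the relaxin receptor, was at 26.8 and 42.2 CPM in naïve skin and at 0.737, 1.43 and 5.65 CPM in 2x skin. Its log2 fold change of -3.51 did not pass the test (SE 0.66, adjusted p = 0.195), and its 2x libraries spread more widely than those of Oxtr.

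Other receptors lay apart as well, with adjusted p values above the threshold. Esr1, the oestrogen receptor alpha, was at 53.3 and 45.5 CPM against 20.4, 22.9 and 22.6 CPM (log2 fold change -1.13, adjusted p = 0.281). Prlr, the prolactin receptor, was at 104 and 58.2 CPM against 32.0, 33.9 and 24.0 CPM (-1.37, adjusted p = 0.236). Nr3c2, the mineralocorticoid receptor, was at 10.3 and 10.6 CPM against 2.80, 3.91 and 6.39 CPM (-1.15, adjusted p = 0.318). Smaller differences in the same direction stood at Ghr, the growth hormone receptor (-0.57), Nr3c1, the glucocorticoid receptor (-0.42), and Thra, a thyroid hormone receptor (-0.32). Igf1r, the receptor for insulin-like growth factor, was the member without overlap on the higher side, at 81.8 and 97.1 CPM against 106, 105 and 103 CPM (0.23, adjusted p = 0.626).

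**Figure D2:**
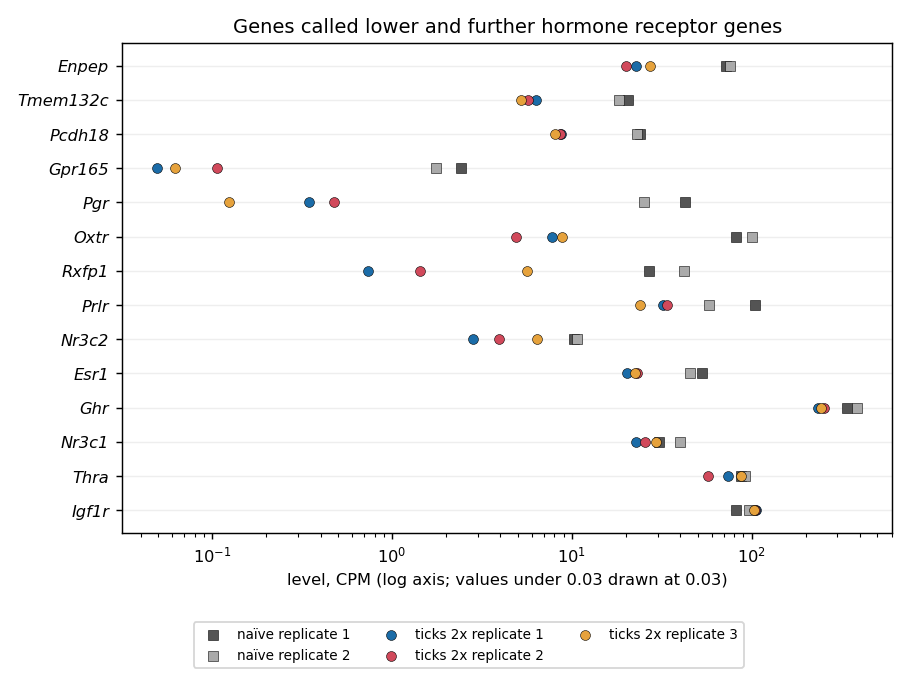
Level in CPM on a log axis of the 6 genes called lower and of further hormone receptor genes named in the text, with 1 point per library (squares naïve, circles ticks 2x). For Oxtr, Pgr, Rxfp1, Prlr, Nr3c2 and Esr1 the 3 circles lie to the left of both squares, while for Igf1r they lie to the right. Of the 4 tested receptor genes with a fold change above 0, only Igf1r is drawn.

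Genes that mark body position and other tissues also differed between these libraries, and 0 of them were called. Many Hox genes keep a record in skin of position along the body, and the list takes every Hox gene by name. Of 26 tested, 13 were lower without overlap (13.1% of all genes were) and 0 higher (14.9%), while 7 had a fold change above 0. Their median was -0.51, which became -0.96 without 2x replicate 1 and -0.79 without replicate 3. Their list means were 2.89 and 2.67 in naïve skin and 2.21, 2.06 and 1.90 in 2x skin. Their summed levels overlapped, at 265 and 186 CPM in naïve skin and 297, 108 and 136 CPM in 2x skin. Hoxa7 was at 8.46 and 6.95 CPM against 1.72, 1.69 and 1.80 CPM (log2 fold change -1.66, adjusted p = 0.164). Hoxa9 (4.67 and 1.44 CPM against 0, 0.317 and 0.124 CPM) and Hoxc8 (33.8 and 17.6 CPM against 8.31, 2.91 and 1.74 CPM) showed the same order, whereas Hoxb4 stood at 11.0 and 11.7 CPM against 11.8, 11.1 and 9.99 CPM. With the Hox mean as a covariate, an alternative added after the data were seen, the log2 fold change was -3.91 for Oxtr (adjusted p = 0.0457) and -5.32 for Pgr (adjusted p = 0.0504).

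The mammary epithelium list, with 9 of 12 genes tested and with Prlr and Esr1 in common with the receptors, had means of 5.58 and 2.61 in naïve skin and 3.32, 1.49 and 1.42 in 2x skin. Csn2, the milk protein beta-casein, was at 46.3 and 2.32 CPM against 1.08, 0 and 0 CPM, and Krt19, a keratin of glandular epithelium, at 53.7 and 8.95 CPM against 4.33, 2.27 and 3.54 CPM. With the mean of this list, without Prlr and Esr1, as a covariate, the log2 fold changes of Oxtr and Pgr were -3.75 and -4.93 and no gene was called (adjusted p of the 6 genes 0.0942 to 0.163). Xist was at 659 to 1033 CPM and the Y-linked Eif2s3y at 0.186 CPM or less in all 5 libraries. In bulk skin, fewer cells of a type and less RNA per cell cannot be told apart.

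Major urinary protein genes, best known as pheromone carriers made in liver, gave 3 of the 12 largest negative fold changes without overlap. Of 19 such genes 12 were tested, and all 12 lay lower without overlap (13.1% of all genes did), with a median log2 fold change of -2.02. Mup10 was at 939 and 1201 CPM in naïve skin and at 51.2, 240 and 293 CPM in 2x skin (fold change on the log2 scale -2.78, SE 0.68, adjusted p = 0.252). Mup17 (-2.96, adjusted p = 0.248) and Mup9 (-2.69, adjusted p = 0.252) followed the same order. The genes are near-identical copies whose reads may have been split or shared among them, so they do not count as 12 separate findings. Akr1c14, an enzyme that reduces steroid hormones, was at 133 and 134 CPM against 22.0, 16.6 and 10.4 CPM (-3.01, SE 0.64, adjusted p = 0.218).

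The remaining 4 of those 12 genes belong to skeletal muscle. Mstn, the muscle growth inhibitor myostatin, was at 158 and 37.2 CPM in naïve skin and at 3.24, 5.92 and 18.3 CPM in 2x skin (-3.23, adjusted p = 0.311). Actn3, the actinin of fast fibres (1225 and 514 CPM against 66.0, 82.1 and 387 CPM), Ampd1, the muscle AMP deaminase (216 and 78.5 CPM against 10.6, 12.9 and 60.9 CPM), and Ky, a muscle peptidase (109 and 60.4 CPM against 5.75, 5.44 and 56.5 CPM), had a value in 2x replicate 3 close to that in naïve replicate 2. Acta1, muscle actin, was even highest in 2x replicate 3, at 6895 and 3818 CPM against 599, 872 and 7880 CPM, and Ckm, muscle creatine kinase, overlapped at 3510 and 1737 CPM against 224, 265 and 2250 CPM. The list of 26 muscle genes, all tested, had 23 below 0 and only 3 lower without overlap, where 13.1% of all genes were. Its median of -1.81 became -2.95 when 2x replicate 3 was left out and -1.17 when replicate 1 was. With the muscle mean as a covariate no gene was called, and the log2 fold changes of Oxtr and Pgr were -3.59 and -5.15 (adjusted p = 0.0758 and 0.0802).

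No gene was called higher, so the values on that side describe these libraries only. Members of a list are counted among those tested. A gene could reach the minimum level through the 2x libraries alone, or through the naïve libraries alone, as Hoxa9 did. Over all genes tested, 51.5% had a fold change above 0, 14.9% lay higher without overlap and 13.1% lower. Of the 31 lists with a median above 0, 25 had one below 0 once the Hox mean was a covariate, and 13 with the mammary mean. Of the 18 lists with a median below 0, 2 had one above 0 with either covariate. The hair shaft median of -0.12 became 9.84 with the Hox covariate and 4.34 with the mammary covariate. That of the melanocyte list, -0.32, became 5.89 and 2.25. Medians with these covariates therefore also moved with the hair content that differed within each group. The Hox mean did not overlap between the groups, and as a covariate it widened the unscaled standard error of the comparison 1.60 times.

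Mast cell genes lay higher in all 3 of the 2x libraries. Of 17 genes 15 were tested, 14 were above 0, 10 lay higher without overlap (14.9% of all genes did) and 0 lower (13.1%), and the median was 1.18. List means were 3.78 and 3.71 in naïve skin and 4.86, 5.23 and 4.92 in 2x skin. The median was -0.27 with the Hox covariate and 0.72 with the mammary covariate. Tpsab1, a mast cell tryptase, was at 0.537 and 0.639 CPM against 45.9, 31.9 and 20.4 CPM (log2 fold change 4.34, SE 1.24, adjusted p = 0.291). Tpsb2, a further tryptase, was at 31.6 and 19.4 CPM against 111, 88.0 and 69.9 CPM (1.79, adjusted p = 0.35), and the tryptase genes are similar enough that reads may have moved between them. Proteases of connective tissue mast cells went the same way, with Mcpt4, a chymase, at 73.4 and 60.3 CPM against 133, 130 and 129 CPM (0.96, adjusted p = 0.542), Cma1 at 43.7 and 37.4 CPM against 127, 107 and 108 CPM (1.47, adjusted p = 0.412) and the carboxypeptidase Cpa3 at 57.2 and 45.2 CPM against 130, 138 and 104 CPM (1.26, adjusted p = 0.479).

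The receptor that binds IgE on mast cells and basophils is built from Fcer1a, Ms4a2 and Fcer1g. Fcer1a, its binding chain, was at 0.168 and 0.16 CPM in naïve skin and at 6.34, 9.09 and 4.59 CPM in 2x skin (fold change on the log2 scale 2.68, SE 0.67, adjusted p = 0.253). Ms4a2, the beta chain, was at 1.88 and 2.16 CPM against 5.80, 5.71 and 5.96 CPM (1.18, adjusted p = 0.408). Fcer1g, the signalling chain shared with other Fc receptors, was at 24.4 and 13.6 CPM against 29.2, 83.9 and 82.4 CPM (1.64, adjusted p = 0.447). Mrgprg, a receptor of the Mas-related family, was at 0.907 and 0.32 CPM against 30.4, 22.5 and 24.2 CPM, high in every 2x library (4.06, SE 0.72, adjusted p = 0.181).

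Rnase2a, of the eosinophil-associated ribonuclease family, was at 6.01 and 2.80 CPM in naïve skin and at 56.7, 134 and 126 CPM in 2x skin (fold change on the log2 scale 4.27, SE 0.81, adjusted p = 0.195). Only some of the eosinophil list lay with it. Of 12 genes 8 were tested and 3, Rnase2a among them, lay higher without overlap (14.9% of all genes did). Siglecf (1.68 and 0.479 CPM against 1.52, 1.53 and 1.99 CPM) and Ccr3 (2.79 and 0.879 CPM against 3.00, 3.22 and 2.42 CPM), surface receptors of eosinophils, overlapped. Prg2, a granule protein of eosinophils, was below the minimum at 0 to 0.372 CPM. The list's median was 0.48, or 0.01 without naïve replicate 2 and 0.95 without naïve replicate 1.

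**Figure D3:**
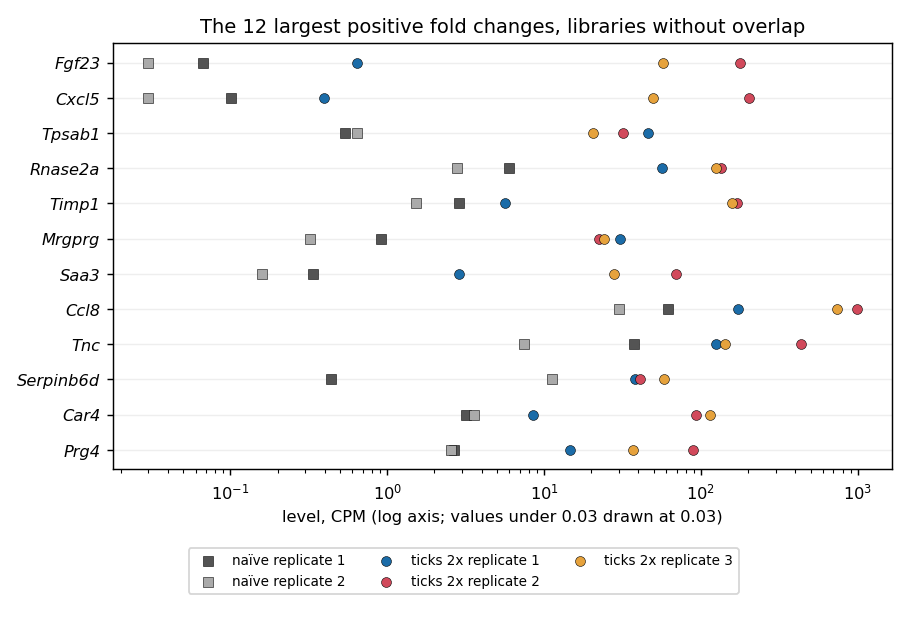
Level in CPM on a log axis, 1 point per library, of the 12 genes with the largest positive fold changes among those whose groups did not overlap; naïve values of 0 (Fgf23 and Cxcl5, replicate 2) are drawn at the left edge. For Tpsab1, Rnase2a, Mrgprg and Serpinb6d all 3 of the 2x libraries stand well to the right, whereas for Fgf23, Cxcl5, Timp1 and Car4 replicate 1 lies near the naïve libraries.

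Basophil genes separated the 2x libraries. Of 13 genes 11 were tested, and their median of 0.81 became 0.45 when 2x replicate 2 was left out and 1.28 when replicate 1 was. Members shared with the mast cell list include Fcer1a and Ms4a2, so the 2 lists are not separate findings. Prss34, a basophil protease, was below the minimum, at 0 in both naïve libraries and at 0.098, 0.264 and 0.248 CPM in 2x skin. Relative to both naïve libraries 5 of the 11 lay higher in 2x replicate 1, 11 in replicate 2 and 9 in replicate 3, while the shares over all genes were 42.1%, 40.0% and 37.3%. The basophil protease gene Mcpt8 stood at 0 in each naïve library and at 0.049, 6.18 and 5.15 CPM in 2x skin (fold change on the log2 scale 1.84, SE 1.00, adjusted p = 0.514). Cd200r3, a basophil and mast cell receptor, was at 0.638 and 0.959 CPM against 1.47, 3.86 and 2.92 CPM (1.01, adjusted p = 0.516). Of the type 2 cytokines, Il4 stayed under the minimum at 0.246 to 0.792 CPM and Il13 at 0.24 to 0.845 CPM in the 5 libraries. Il1rl1, the receptor for interleukin-33, was at 11.8 and 8.23 CPM against 24.7, 59.2 and 28.4 CPM (1.72, adjusted p = 0.376). Il31ra, which binds the itch cytokine interleukin-31, lay on the other side at 21.1 and 41.3 CPM against 6.02, 11.0 and 19.7 CPM (-1.34, adjusted p = 0.326).

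Most genes that call or mark neutrophils were high in 2x replicates 2 and 3 and not in replicate 1. List means of the 11 neutrophil-recruiting cytokines were 2.08 and 2.54 in naïve skin and 2.06, 5.76 and 4.59 in 2x skin, and 2, 11 and 10 of them exceeded both naïve libraries in 2x replicates 1, 2 and 3. The median of 1.58 became 0.55 on leaving out 2x replicate 2 and 2.59 on leaving out replicate 1. Of the 11, 1 lay higher without overlap, where 14.9% of all genes did. That gene, Cxcl5, a chemokine for neutrophils, was at 0.101 and 0 CPM against 0.393, 203 and 49.2 CPM (log2 fold change 4.53, SE 1.81, adjusted p = 0.398). A further 2 such chemokines overlapped, Cxcl1 at 9.20 and 16.1 CPM against 10.2, 132 and 32.2 CPM and Cxcl2 at 7.19 and 15.0 CPM against 7.47, 121 and 45.7 CPM. The cytokine Il6 showed the same order at 3.59 and 7.83 CPM against 2.85, 92.9 and 33.4 CPM, and its relative Osm stood at 4.70 and 7.03 CPM against 7.18, 120 and 82.9 CPM (2.69, adjusted p = 0.477).

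Of 15 neutrophil genes 10 were tested, 2 of them higher without overlap (14.9% of all genes were) and 2 below 0, with a median of 1.28, or 0.55 when 2x replicate 2 was left out and 1.92 when replicate 1 was. S100a8 and S100a9, the subunits of calprotectin, were at 4.57 and 14.0 CPM against 7.42, 95.7 and 38.0 CPM and at 7.49 and 27.8 CPM against 9.05, 273 and 81.0 CPM. Ltf, the granule protein lactoferrin, which glands also secrete, lay on the other side and overlapped, at 28.1 and 2.24 CPM against 2.95, 0.211 and 0.248 CPM (log2 fold change -2.42, SE 0.92, adjusted p = 0.382). The neutrophil granule genes Camp and Elane were below the minimum in all 5 libraries, at no more than 0.336 and 0.201 CPM. Retnlg, a resistin-like protein of neutrophils, was at 1.71 and 1.76 CPM against 3.49, 21.6 and 9.37 CPM (1.89, adjusted p = 0.345). Saa3, an acute phase protein, was at 0.336 and 0.16 CPM against 2.85, 69.8 and 27.8 CPM (4.00, SE 1.22, adjusted p = 0.313).

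Chemokines for monocytes and their receptors were also highest in 2x replicates 2 and 3, with list means of 4.20 and 3.59 against 4.45, 6.13 and 5.52. All 14 listed genes were tested, 8 lay higher without overlap (14.9% of all genes did), and the median was 1.51 (-0.35 with the Hox covariate). Ccl8, a ligand for receptors of monocytes and eosinophils, was at 61.3 and 29.9 CPM against 172, 990 and 740 CPM (log2 fold change 3.52, SE 1.15, adjusted p = 0.327). Ccl3 was at 0.806 and 1.52 CPM against 5.06, 30.7 and 16.9 CPM (2.83, adjusted p = 0.373). Ccl7 was at 37.0 and 26.0 CPM against 39.9, 141 and 115 CPM, and Ccl2, the main monocyte chemokine, overlapped at 29.8 and 16.3 CPM against 25.5, 76.3 and 44.4 CPM.

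All 18 macrophage genes had a fold change above 0 (51.5% of all genes did), with 7 higher without overlap (14.9%) and a median of 0.90. That median was 0.46 without naïve replicate 2, 0.57 without 2x replicate 2 and -0.48 with the Hox covariate. Adgre1, which codes for the F4/80 antigen, was at 42.0 and 31.5 CPM against 54.3, 75.1 and 46.8 CPM (log2 fold change 0.65, adjusted p = 0.743), and the lysosomal marker Cd68 was at 51.2 and 34.5 CPM against 67.1, 131 and 109 CPM (1.21, adjusted p = 0.545). Ms4a7, a macrophage membrane protein, was at 8.09 and 3.12 CPM against 16.4, 58.3 and 38.5 CPM (2.49, adjusted p = 0.372). Of 15 genes of alternatively activated macrophages 13 were tested. Without overlap, 5 lay higher and 1 lower, where 14.9% and 13.1% of all genes did. Arg1, arginase, was at 30.6 and 31.2 CPM against 41.1, 354 and 445 CPM (2.56, adjusted p = 0.466), and Chil3, a chitinase-like protein, at 0.201 and 0.479 CPM against 0.983, 46.2 and 24.8 CPM (3.33, adjusted p = 0.488). Retnla, another gene of this programme, overlapped at 218 and 94.1 CPM against 282, 137 and 302 CPM.

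Haem, which blood carries, is broken down by haem oxygenase. Whether blood left by feeding ticks bore on the values below was not tested. Hmox1, which codes for that enzyme, was at 73.0 and 61.7 CPM in naïve skin and at 108, 1504 and 1201 CPM after 2x, a log2 fold change of 3.09 (SE 1.19, adjusted p = 0.384). Cd163, the scavenger receptor for haemoglobin bound to haptoglobin, was at 157 and 103 CPM against 142, 1207 and 722 CPM, with replicate 1 inside the naïve range. Hp, haptoglobin itself, was high in all 3 of the 2x libraries at 97.0 and 89.0 CPM against 386, 634 and 218 CPM (2.01, SE 0.52, adjusted p = 0.269). Ftl1, the ferritin light chain, was at 735 and 629 CPM against 992, 1956 and 2162 CPM (1.25, adjusted p = 0.444). Erythrocyte genes, of which 5 of 8 were tested, summed to 165 and 175 CPM against 213.5, 301 and 423 CPM, and the part of residual blood in these values was not tested.

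Fc receptors, which bind the antibodies of an immune host, were tested in full. Without overlap, 7 of 10 lay higher (14.9% of all genes did) and 1 lower (13.1%). The median was 1.41 (-0.24 with the Hox covariate). Fcgr4, a receptor for IgG, was at 0.94 and 0.24 CPM against 4.23, 15.1 and 6.83 CPM (log2 fold change 2.49, SE 0.77, adjusted p = 0.314), and Fcgr3, another, was at 43.6 and 24.1 CPM against 61.1, 192 and 138 CPM (1.83, adjusted p = 0.411). Of 13 oxidase genes 12 were tested and 7 lay higher without overlap (14.9% of all genes did), with a median of 1.03. Duox2, an epithelial oxidase that makes hydrogen peroxide, was at 2.45 and 3.36 CPM against 19.1, 14.2 and 10.4 CPM and was highest in 2x replicate 1 (1.97, SE 0.35, adjusted p = 0.181). Cyba, a subunit of the phagocyte oxidase, was at 20.4 and 11.5 CPM against 29.3, 62.2 and 75.0 CPM, whereas its partner Cybb overlapped at 40.1 and 24.7 CPM against 39.3, 43.8 and 24.5 CPM. Nos2, inducible nitric oxide synthase, was at 0.94 and 1.84 CPM against 0.344, 14.8 and 30.3 CPM.

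Cascades of the blood were mixed. Of 18 coagulation and fibrinolysis genes, all tested, 4 lay higher and 3 lower without overlap, where 14.9% and 13.1% of all genes did. Their median of 0.12 became -0.07 without 2x replicate 1 and -0.03 without naïve replicate 1, and lay at 0.04 and 0.06 without 2x replicate 2 and naïve replicate 2. F10, coagulation factor X, was at 0.674 and 0.719 CPM against 2.06, 16.4 and 11.3 CPM (log2 fold change 2.36, adjusted p = 0.41), and Plaur, the urokinase receptor, at 6.04 and 6.31 CPM against 8.11, 54.9 and 45.9 CPM (2.00, adjusted p = 0.414). F3, tissue factor, which starts clotting, was at 88.7 and 98.5 CPM against 65.3, 96.4 and 72.0 CPM. Of 18 complement genes 5 lay higher and 6 lower without overlap, and the median of -0.27 became -0.01 without naïve replicate 1 and -0.16 without 2x replicate 3. C3, the central component, was at 1306 and 1196 CPM against 539, 925 and 712 CPM (-0.82, adjusted p = 0.573), while C4b overlapped at 427 and 300 CPM against 338, 345 and 265 CPM.

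Lymphocyte transcripts were scarce. Of 18 T cell genes 15 were tested, 14 had a fold change above 0 and 6 lay higher without overlap (14.9% of all genes did). The median was 0.64 (0.22 without 2x replicate 2). Cd3e, a chain of the T cell receptor complex, was at 5.07 and 3.99 CPM against 3.39, 15.8 and 7.57 CPM, and Cd4, the coreceptor of helper T cells, at 1.01 and 1.60 CPM against 1.77, 15.1 and 3.17 CPM. Gzma, a protease of cytotoxic lymphocytes, was at 0.571 and 0.16 CPM against 3.93, 7.03 and 4.90 CPM (log2 fold change 2.19, SE 0.67, adjusted p = 0.313), and Gzmb at 0.638 and 0.08 CPM against 1.72, 7.18 and 4.72 CPM. Prf1, perforin, did not stand out at 2.42 and 3.20 CPM against 2.02, 3.59 and 3.79 CPM. Only 1 of 10 B and plasma cell genes reached the minimum, and Cd79a, a chain of the B cell receptor complex, was at no more than 0.559 CPM.

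Antigen presenting genes differed little in their medians, while the 2x libraries were split. Relative to both naïve libraries, 9 of 10 MHC class II genes lay lower in 2x replicate 1, and 10 and 9 higher in replicates 2 and 3. Of 10 class I genes, 8 lay lower in replicate 1, and 9 and 4 higher in replicates 2 and 3. Over all genes, 37.8% lay lower in replicate 1, and 40.0% and 37.3% higher in replicates 2 and 3. The medians were 0.17 for 10 MHC class II genes and 0.12 for 10 MHC class I genes, and none of the latter was free of overlap. On leaving out a library they ran from 0.07 to 0.40 for class II and from -0.09 (without 2x replicate 2) to 0.34 for class I. H2-Aa, a class II chain, was at 285 and 281 CPM in naïve skin and at 271, 386 and 378 CPM in 2x skin. Ctss, the protease that prepares class II for loading, was the class II gene free of overlap, at 76.4 and 53.7 CPM against 165, 444 and 297 CPM (log2 fold change 2.11, adjusted p = 0.398). Cd207, which marks Langerhans cells, overlapped at 14.7 and 26.8 CPM against 6.69, 18.3 and 23.3 CPM.

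Interferon-stimulated genes were low in 2x replicates 1 and 3 and level with naïve skin in replicate 2, with list means of 4.23 and 4.07 against 3.48, 4.23 and 3.68. Of 20 genes, all tested, 16 had a fold change below 0, and 8 were lower without overlap (13.1% of all genes were) and 0 higher (14.9%). In 2x replicate 2, 9 genes lay above both naïve libraries and 8 below. The median was -0.29, or -0.53 without 2x replicate 2 and -0.17 without naïve replicate 1. Ifit3, an interferon-induced antiviral protein, was at 22.0 and 19.2 CPM against 6.81, 7.22 and 5.59 CPM (log2 fold change -1.52, SE 0.26, adjusted p = 0.164). Its relatives Ifit1 (21.8 and 18.2 CPM against 8.35, 14.5 and 8.68 CPM) and Ifit2 (22.2 and 19.3 CPM against 11.7, 14.2 and 8.88 CPM) kept the same order. Isg15, a ubiquitin-like member, overlapped at 9.09 and 7.36 CPM against 5.77, 11.5 and 5.36 CPM.

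Lymphatic vessel genes, all 7 tested, had a median of -0.98, which was -0.38 without naïve replicate 2 and -0.64 without 2x replicate 2. Lyve1, the hyaluronan receptor of lymphatic endothelium and of some macrophages, was at 113 and 49.8 CPM against 18.0, 18.6 and 18.6 CPM (log2 fold change -1.97, SE 0.38, adjusted p = 0.195). Prox1, the transcription factor that sets lymphatic identity, was at 4.00 and 9.35 CPM against 1.57, 1.74 and 3.23 CPM (-1.21, adjusted p = 0.313). Pdpn, podoplanin, which keratinocytes and fibroblasts also make, was on the other side at 42.8 and 31.8 CPM against 43.6, 196 and 144 CPM. Kdr, the main receptor for vascular growth factor on endothelium, was at 45.8 and 63.0 CPM against 13.6, 18.9 and 41.7 CPM (-1.24, adjusted p = 0.373). The general endothelial marker Pecam1 overlapped at 85.6 and 110 CPM against 32.7, 105 and 154 CPM, and the list of 14 endothelial genes had a median of -0.26, which ran from -0.75 without 2x replicate 3 to 0.10 without 2x replicate 1.

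In fat, 15 of 18 tested genes had a fold change below 0 and 6 were lower without overlap (13.1% of all genes were). The median was -0.59, or -0.37 without naïve replicate 2. Acaca, the enzyme that starts fatty acid synthesis, was at 549 and 765 CPM against 209, 126 and 261 CPM (log2 fold change -1.76, SE 0.38, adjusted p = 0.218), and Fasn, fatty acid synthase, at 2522 and 3955 CPM against 1126, 508 and 1591 CPM (-1.70, adjusted p = 0.326). Lep, leptin, was at 50.3 and 61.6 CPM against 37.5, 18.3 and 30.9 CPM. Adipoq, adiponectin, a defining adipocyte transcript, overlapped at 293 and 362 CPM against 325, 263 and 298 CPM.

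Further genes with large differences were not called. Tnc, the wound matrix protein tenascin C, was at 37.3 and 7.43 CPM against 126, 437 and 142 CPM (log2 fold change 3.47, SE 1.22, adjusted p = 0.354). Timp1, an inhibitor of matrix metalloproteinases, was at 2.85 and 1.52 CPM against 5.60, 169 and 158 CPM (4.17, SE 1.66, adjusted p = 0.398), and Prg4, the lubricant protein lubricin, at 2.65 and 2.56 CPM against 14.7, 89.4 and 36.9 CPM (3.39, adjusted p = 0.35). The list of 19 collagen and matrix genes had a median of 0.02, and of -0.19 to 0.21 on leaving out a library. Serpinb6d, an inhibitor of the serpin family, was at 0.437 and 11.3 CPM against 38.0, 41.0 and 58.1 CPM (3.45, adjusted p = 0.313), Car4, a carbonic anhydrase, at 3.19 and 3.59 CPM against 8.50, 93.1 and 114 CPM (3.42, adjusted p = 0.313), and Fgf23, best known as the phosphate hormone of bone, at 0.067 and 0 CPM against 0.639, 178 and 57.6 CPM (4.64, SE 1.76, adjusted p = 0.381). Fgf23 therefore had the largest positive fold change of the comparison while 1 of its 3 bitten libraries was below 1 CPM.

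Keratins of wounded epidermis varied within the bitten group. Krt6a was at 125 and 107 CPM in naïve skin and at 515, 234 and 91.7 CPM in 2x skin, and Krt16 at 13.1 and 12.2 CPM against 42.1, 203 and 7.41 CPM, so that replicate 3 lay below both naïve libraries for each. Areg, a ligand of the EGF receptor, lay lower without overlap at 32.1 and 33.6 CPM against 14.4, 13.5 and 5.52 CPM (log2 fold change -1.58, SE 0.42, adjusted p = 0.275). Immediate early genes, which respond within minutes to handling and wounding, had 16 of 17 below 0 and a median of -0.81, which was -0.23 without naïve replicate 2 and -1.29 without naïve replicate 1. Fos (1518 and 3383 CPM against 1222, 2248 and 782 CPM) and Egr1 (1282 and 2499 CPM against 1020, 1420 and 733 CPM) overlapped. Ier3, which protects cells from death, was the gene above 0, at 24.7 and 30.9 CPM against 55.0, 166 and 161 CPM (2.00, SE 0.62, adjusted p = 0.313). The 15 circadian clock genes had 4 lower and 1 higher without overlap, where 13.1% and 14.9% of all genes were. Their median of -0.36 was -0.14 without naïve replicate 2.

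**Figure D4:**
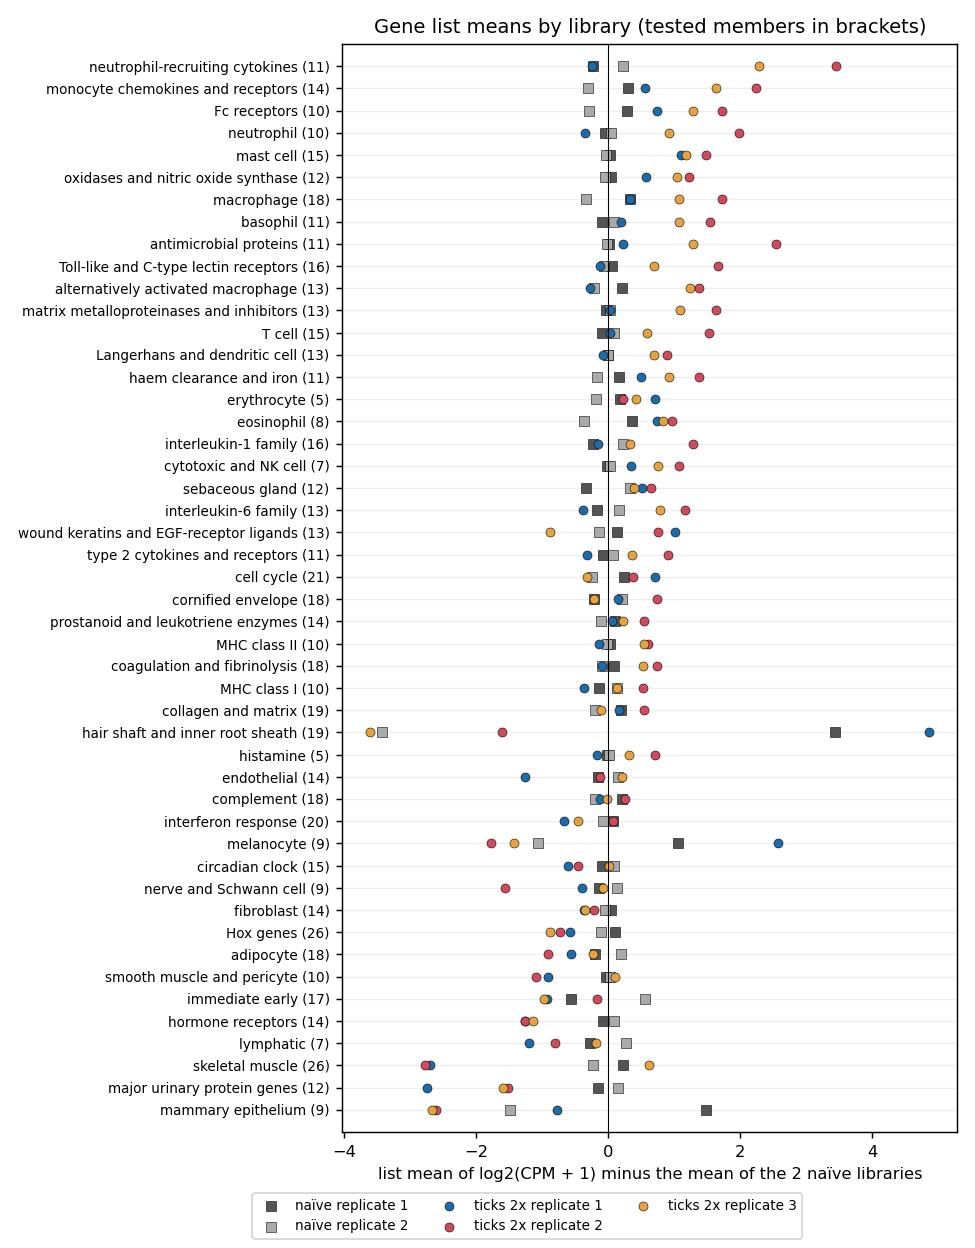
Mean log2(CPM + 1) of the tested members of each gene list in each library, minus the mean of the 2 naïve libraries, with the number of members in brackets and lists ordered by their median log2 fold change; the B and plasma cell list, with 1 tested gene, is not drawn. In the mast cell row all 3 circles stand right of both squares, in the neutrophil-recruiting row replicate 1 sits among the squares, and in the hormone receptor row all circles stand left.

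No gene passed the test between ticks 3x and ticks 2x. Of 16005 genes 0% were called in the 3 libraries labelled ticks 3x against ticks 2x in the same limma fit, where the lowest adjusted p was 0.65 and 826 genes had an unadjusted p below 0.05. Oxtr was at 19.8, 16.6 and 9.01 CPM in 3x skin, each above every 2x library (3x minus 2x log2 difference 0.95, SE 0.29, adjusted p = 0.879). Pgr was at 10.9, 12.2 and 2.09 CPM there (2.59, SE 0.50, adjusted p = 0.879), between the 2x and the naïve values in each library. Hox list means were 2.75, 2.73 and 2.89 in 3x skin, close to those of naïve skin. Mrgprg stood at 14.7, 5.98 and 27.0 CPM and Tpsab1 at 36.7, 11.0 and 1.49 CPM, so that the mast cell list mean of 3x replicate 3, at 4.05, approached the naïve values.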

How the data were processed

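RNA from mouse skin was sequenced in 12 libraries. Per the submitters' processing notes, STAR and Partek 8.0.19 were used with GRCm38.p6, and the annotation and counting program are not stated there. The authors deposited CPM values with 0.0001 added to each, and this offset was subtracted. Of 25070 named rows, 25 had names turned into dates (4 of them repeated) and were dropped. No column lacked a sample (0 columns).

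Depth was taken from the smallest CPM step in each library. Only 73.4% to 79.3% of values between 0.01 and 3 CPM came out as whole reads within 0.02 reads, so no count test was run. Floors of 3 reads cover counting error only.

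The 5 libraries were fitted with first exposure (3) and ticks 3x (3) as 11 libraries in 4 groups (7 residual degrees of freedom), on log2(CPM + 1) with a trended prior (limma 3.58.1, R 4.3.3), keeping genes that reached 1 CPM in 2 or more of the 5. Fold changes on this scale understate changes of low genes. Calls needed a Benjamini-Hochberg adjusted p below 0.05. Data with independent normal noise were simulated for this comparison over 16005 genes. Changes were planted only in genes with a mean log2(CPM + 1) above 5. Of 67, 67 and 66 changes of 1, 2 and 4 on the log2 scale, 41.8%, 74.6% and 97.0% were recovered, with 15 false calls. Recovery in lower genes was not simulated.

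The 47 gene lists hold 634 genes, 622 found by symbol, 3 by synonym and 9 not found; 38 genes are in several lists. Lists of Hox and major urinary protein genes were added after the data were seen. Lists and the comparison itself were chosen with earlier results of these data known, and lists are described without a test. Some list members are counted but not reported here by name. In the table, 22651 names (90.4%) matched RefSeq, the source of coordinates.

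Named genes are every called gene, the 12 largest and 12 smallest log2 fold changes without overlap and with a group mean of at least 5 CPM, and for lists described in detail the first 2 members and up to 2 with the largest change without overlap. Genes named outside this rule, after their values were seen, are the Hox genes, the hormone receptors other than Pgr, Oxtr, Rxfp1 and Prlr, Cma1, Tpsb2, Cd163, Ltf and the untested genes other than Il4, Il13 and Cd79a. Alternatives were other pseudocounts, filters, scalings, sets of libraries, robust moderation, covariates for tissue content and leaving out each library. Figures were drawn with matplotlib 3.10.9 under Python 3.11.15, on tables read with pandas 2.3.3.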

Additional observations from a re-analysis of the deposited data

How the results depend on the processing

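The number of genes called lower in ticks 2x than in naïve skin, 6 with the settings of the report, was 11 with no filter on level and 3 with quantile normalization. It was 0 with only the naïve and ticks 2x libraries, 0 with only the libraries of the same title series, and 0 with the skeletal muscle or the mammary mean as a covariate. With the Hox mean as a covariate 68 genes were called lower and 5 higher, among them 4 of the 6. Leaving out 1 of the 2x libraries at a time gave 0 to 2 genes lower and 0 to 3 higher. Pseudocounts of 0.5 and 0.1 and robust moderation called the same 6 genes, and a 5 CPM filter, median-of-ratios scaling and a hair shaft covariate called 4, 5 and 4 of them. Gpr165 did not reach the 5 CPM filter and was not tested there. No paired analysis was possible because the labels carry no number that links libraries across the groups.

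Log2 fold changes of single genes that changed sign were never called ones. With the Hox covariate these were Adgre1 (-1.04), Ccl2 (-1.97), Ccl7 (-2.05), Ccr3 (-0.30), Cd163 (-0.10), Cd200r3 (-0.13), Cd3e (-1.62), Cd68 (-0.64), Cma1 (-0.27), Cpa3 (-0.41), Ctss (-0.14), Cxcl1 (-1.80), Cxcl2 (-0.40), Cybb (-0.83), Fcer1g (-0.34), Fcgr3 (-0.10), Ftl1 (-0.44), H2-Aa (-1.61), Hoxb4 (0.75), Hoxc8 (0.67), Il6 (-0.80), Mcpt4 (-0.66), Ms4a2 (-0.19), Nos2 (-0.14), Osm (-0.30), Prf1 (-1.85), Prg4 (-0.060), Siglecf (-0.18) and Timp1 (-0.066). With the mammary covariate they were Cd3e (-0.053), Cxcl1 (-0.21), Cxcl2 (-0.16), H2-Aa (-0.24), Hoxb4 (0.085), Il6 (-0.14) and Prf1 (-0.48), and with the muscle covariate Adipoq (0.058), Cybb (-0.17), Krt16 (-0.58), Krt6a (-0.16) and Pecam1 (0.12). On leaving out 1 library the range crossed 0 for Adipoq (-0.30 to 0.0069), C4b (-0.44 to 0.064), Cd207 (-0.86 to 0.053), Cybb (-0.20 to 0.48), Hoxb4 (-0.10 to 0.011), Isg15 (-0.49 to 0.0018), Pecam1 (-0.72 to 0.39), Prf1 (-0.052 to 0.31) and Siglecf (-0.0036 to 0.85). The causes were not tested.

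The naïve group has 2 libraries, 1 of them of 12.5 M reads, and genes near 0.2 CPM in naïve skin rest on a few reads. Medians of lists have no test. Over all settings 91 of them moved by more than the standard deviation of the list mean among the 3 ticks 2x libraries, and 787 did not. A list that varies widely among those libraries could thus shift far without counting as moved. The hair shaft median, 3.61 without naïve replicate 1 and -3.96 without naïve replicate 2, counted as not moved.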
